A study of Mus musculus with 18 samples.

Results

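Sperm small RNA held reads annotated with 63 mouse microRNA names. Of these reads, called microRNA reads below, 85.1% carried the name mmu-mir-3535. The share is by annotation name only, since no mmu-mir-3535 read had 16 or more bases inside the annotated mature strand. A member was any first annotation name that began with the mouse microRNA prefix mmu-, taken from the annotation string of each sequenced small RNA before its first semicolon. The 63 names were part of 171 first names found in the 4 sperm libraries, leaving out sequences without annotation. They held 211 of 207217 distinct sequences and 4278 of 2358974 reads, which is 0.181% of the reads.

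The study behind these libraries bears on iron metabolism and on ISCA2, a mitochondrial protein that assembles iron-sulfur clusters, in mouse embryos around implantation. Of its 18 samples, 2 were sperm from Isca2 -/- mice (KO) and 2 were sperm from wild-type mice (WT). The 6 oocyte and 8 blastocyst samples were not analysed here. The labels gave no strain, age, allele design or number of mice per library, and no label said that replicates came from separate mice, so p-values measure only the spread between these libraries, which may be technical. The annotation names did not include Isca2, so the genotype labels could not be checked from these reads.

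MicroRNAs are cut from hairpin precursors into short mature strands, and the bases near the 5′ end of a mature strand, called the seed, pair with target messenger RNAs. Maturing sperm cells are almost silent in transcription, and their small RNA is known for fragments of transfer RNA and ribosomal RNA, with microRNAs as a smaller part. Sperm gain part of their small RNA while passing through the epididymis. The known microRNAs of sperm include the mir-34b and mir-34c pair and the mir-449 family of meiotic and later germ cells, the let-7 family and the mir-10 family of the Hox clusters.

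The libraries differed in composition. The files held only sequences of 20 to 45 nucleotides (nt), so every share below is of those reads. KO replicates 1 and 2 held 703133 and 746812 reads, and WT replicates 1 and 2 held 205993 and 703036 reads. WT replicate 2 stood apart with 68.2% ribosomal RNA, against 30.4% to 35.3% in the other 3 libraries, and with 8.71% unannotated reads, against 14.7% to 20.4%.

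The sequences below show the precursor hairpins of the names with the most reads and where the reads lay in them. The hairpins and mature strands came from RefSeq (GRCm38.p6), and reads of 50 of the 63 names could be placed in the hairpin of their name. In a hairpin the capitals mark the annotated mature strands.
mmu-mir-3535 hairpin, chr1:86351981-86352127, minus strand: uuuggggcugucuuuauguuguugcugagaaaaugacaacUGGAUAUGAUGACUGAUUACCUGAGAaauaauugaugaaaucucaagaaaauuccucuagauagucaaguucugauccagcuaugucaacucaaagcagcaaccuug
mmu-mir-10b hairpin, chr2:74726070-74726137, plus strand: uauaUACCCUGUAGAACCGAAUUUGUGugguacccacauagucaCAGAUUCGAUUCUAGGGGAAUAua
mmu-mir-30a hairpin, chr1:23272269-23272339, plus strand: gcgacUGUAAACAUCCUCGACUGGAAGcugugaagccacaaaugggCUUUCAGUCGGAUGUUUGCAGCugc

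The hairpin listed as mmu-mir-3535 lies inside the coordinates of Ncl, the gene of the nucleolar protein nucleolin, and carries the RefSeq symbol Gm24148. The hairpin of mmu-mir-10b lies within the coordinates of Hoxd3 and Hoxd4. The hairpin of mmu-mir-30a overlaps no protein-coding gene in the same table, which gives gene extents and not exons.

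The mature strands of these names are shown next, with the seed (bases 2 to 8) in capitals.
mmu-miR-3535: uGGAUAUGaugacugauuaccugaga
mmu-miR-10b-5p: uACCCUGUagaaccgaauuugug
mmu-miR-10a-5p: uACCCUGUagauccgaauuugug
mmu-miR-30a-5p: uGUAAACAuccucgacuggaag
mmu-miR-148a-3p: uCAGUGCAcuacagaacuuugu
mmu-let-7f-5p: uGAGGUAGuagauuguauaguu
The mmu-miR-10a-5p and mmu-miR-10b-5p strands share the seed ACCCUGU, and the other 4 strands each have a seed of their own.

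The 6 leading reads of mmu-mir-3535 and leading reads of 4 other names are shown as the files list them, with the bases that lie inside the annotated mature strand in capitals.
mmu-mir-3535, 24 nt, 959 reads: ATTACCTGAGAaataattgatgaa
mmu-mir-3535, 26 nt, 512 reads: ATTACCTGAGAaataattgatgaaat
mmu-mir-3535, 22 nt, 359 reads: ATTACCTGAGAaataattgatg
mmu-mir-3535, 29 nt, 274 reads: ATTACCTGAGAaataattgatgaaatctc
mmu-mir-3535, 39 nt, 267 reads: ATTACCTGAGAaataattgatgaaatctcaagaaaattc
mmu-mir-3535, 23 nt, 183 reads: ATTACCTGAGAaataattgatga
mmu-mir-10b, 20 nt, 225 reads: AATTTGTGtggtacccacat
mmu-mir-30a, 21 nt, 45 reads: CTGGAAGctgtgaagccacaa
mmu-mir-30a, 24 nt, 20 reads: ggCTTTCAGTCGGATGTTTGCAGC
mmu-mir-148a, 22 nt, 9 reads: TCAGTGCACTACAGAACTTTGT
mmu-let-7f-1, 31 nt, 5 reads: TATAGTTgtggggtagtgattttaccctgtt
In these reads the capitals of mmu-mir-3535, mmu-mir-10b, mmu-let-7f-1 and the 21 nt read of mmu-mir-30a are the 3′ end of the mature strand, and the read then runs on past it. The leading read of mmu-mir-148a, in contrast, is the whole mature strand.

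MicroRNA names took a small share of every library. KO replicates 1 and 2 held 871 and 2453 microRNA reads, which is 0.124% (95% Wilson interval 0.116 to 0.132) and 0.328% (0.316 to 0.342) of their reads. WT replicates 1 and 2 held 422 and 532, which is 0.205% (0.186 to 0.225) and 0.0757% (0.0695 to 0.0824). The intervals cover counting error only, since reads copied by PCR are not independent molecules. The 4 intervals were apart from each other, so libraries of the same genotype differed by more than counting error. The share averaged 0.226% ± 0.145 in KO and 0.140% ± 0.0914 in WT (SD, n = 2 each), a difference of 0.0859 percentage points (exact two-sided permutation test, p = 0.667). With 2 libraries against 2, that test cannot give a p below 0.333. Without WT replicate 2 the difference was 0.0213 percentage points, and without KO replicate 2 it was -0.0164. Without KO replicate 1 it was 0.188, and without WT replicate 1 it was 0.150. As a share of reads that were not ribosomal RNA, a denominator chosen after the data were seen, microRNAs took 0.178% and 0.478% in KO and 0.317% and 0.238% in WT.

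The name mmu-mir-3535 held most microRNA reads in every library. It had 775 and 2136 reads in KO replicates 1 and 2, against 350 and 379 in WT replicates 1 and 2. That was 89.0% (95% Wilson interval 86.7 to 90.9) and 87.1% (85.7 to 88.3) of the microRNA reads in KO, and 82.9% (79.1 to 86.2) and 71.2% (67.3 to 74.9) in WT. Both KO shares were above both WT shares, and the intervals of KO replicate 2 and WT replicate 1 overlapped. Scaled to 1000000 reads of the whole library (RPM), the name stood at 1102 and 2860 RPM in KO and at 1699 and 539 RPM in WT. On that scale the genotypes overlapped, with WT replicate 1 above KO replicate 1.

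The second name, mmu-mir-10b, a microRNA of the HoxD cluster, had 24 and 132 reads in KO and 22 and 90 in WT. Its share of microRNA reads was 2.76% (1.86 to 4.07) and 5.38% (4.56 to 6.35) in KO, and 5.21% (3.47 to 7.77) and 16.9% (14.0 to 20.3) in WT. WT replicate 2 was high and KO replicate 1 low, while KO replicate 2 and WT replicate 1 were close. Both names together held 91.7% and 92.5% of microRNA reads in KO and 88.2% in each WT library, a difference of 3.94 percentage points (exact two-sided permutation test, p = 0.333, the smallest the design allows). Among sequences of 20 to 24 nt the shares were 89.9% and 92.9% in KO and 82.3% and 83.1% in WT.

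The remaining 61 names shared between 50 and 185 reads in a library. The third name, mmu-mir-30a, had 5 and 44 reads in KO and 11 and 10 in WT. The fourth, mmu-mir-148a, had 5 and 14 in KO and 5 and 2 in WT. It was followed by mmu-mir-10a, of the HoxB cluster, with 6 and 8 reads in KO and 4 and 3 in WT. The name mmu-mir-1843b, whose hairpin overlaps the small Cajal body RNA Scarna3a, had 2 and 20 reads in KO and 3 and 4 in WT. The name mmu-mir-3064, within the coordinates of the helicase gene Ddx5, had 5 and 15 in KO and 1 and 5 in WT. These are reads not scaled to depth. Scaled to RPM, mmu-mir-30a stood at 7.11 and 58.9 in KO and 53.4 and 14.2 in WT, and mmu-mir-148a at 7.11 and 18.7 in KO and 24.3 and 2.84 in WT, so that for mmu-mir-148a WT replicate 1, the shallowest library, was highest.

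The other names of the leading 12 had at most 14 reads over the 4 libraries. The name mmu-mir-677, within the ATP synthase gene Atp5b, had 6 and 5 reads in KO and 0 and 3 in WT. For mmu-mir-16-1 the reads were 1 and 0 in KO and 3 and 2 in WT. For mmu-mir-31 they were 3 and 4 in KO and 1 and 2 in WT. The name mmu-mir-1291, whose hairpin overlaps the small nucleolar RNA Snora34, had 4 and 6 in KO and 0 and 2 in WT. For mmu-mir-5098 they were 3 and 10 in KO and 0 and 1 in WT. At these counts single reads decide the order of the libraries. The 51 further names had at most 12 reads each over the 4 libraries.

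Detection was sparse outside the leading names. KO replicates 1 and 2 had reads of 30 and 28 names, and WT replicates 1 and 2 of 24 and 30. Of the 63 names, 8 were detected in all 4 libraries, 6 in 3, 13 in 2 and 36 in 1. The 8 were mmu-mir-3535, mmu-mir-10b, mmu-mir-30a, mmu-mir-148a, mmu-mir-10a, mmu-mir-1843b, mmu-mir-3064 and mmu-mir-31. Only mmu-mir-3535 and mmu-mir-10b had at least 10 reads in every library, and with mmu-mir-30a and mmu-mir-10a added, 4 names had at least 3. In total 48 names had fewer than 10 reads over the 4 libraries, and 24 had 1 read. Reads of 21 names came from KO libraries alone and reads of another 21 from WT libraries alone. The 36 names detected in 1 library fall in these counts whatever the genotype. The same counts were not made over all annotated names, so they do not show that any microRNA name is tied to a genotype.

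Depth sets part of these detection counts. In a draw of 205993 reads from each library, the size of the shallowest, the number of names expected by exact rarefaction was 16.6 and 19.8 in KO and 24 and 15.3 in WT. WT replicate 1 is the shallowest library itself, so its 24 names stayed, and it had the most names at equal depth. The expected number of names in all 4 libraries at that depth was 5.01, against 8 at full depth. A name with 0 reads may still have been present at up to 3 reads, which is 4.27 and 4.02 RPM in KO and 14.6 and 4.27 RPM in WT.

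Read length differed between the names. Of all microRNA reads, 51.0% and 58.3% were 20 to 24 nt long in KO, and 48.1% and 50.2% in WT. The difference of 5.49 percentage points gave p = 0.333 (exact two-sided permutation test), and it was 1.83 without KO replicate 2 and 9.15 without KO replicate 1. Among all other reads, 39.6% and 34.9% were of that length in KO and 26.9% and 36.2% in WT, so in each library microRNA names held more short reads than the rest.

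For mmu-mir-10b nearly all reads were short. Reads of exactly 20 nt made up 87.5% and 88.6% of its reads in KO and 59.1% and 95.6% in WT, and no read was longer than 26 nt. For mmu-mir-3535 the lengths ran from 20 to 45 nt, and 24 nt was the leading length in 3 libraries, with 26.5% and 30.9% in KO and 22% in WT replicate 1. In WT replicate 2, 24 nt took 8.44% and 29 nt led with 33.2%, against 4.39% and 4.92% at 29 nt in KO and 3.43% in WT replicate 1. Without mmu-mir-3535, 71.9% and 70.7% of the microRNA reads were 20 to 24 nt long in KO, and 73.6% and 88.2% in WT, so that the difference turned to -9.65 percentage points.

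The reads of mmu-mir-3535 shared their 5′ end and differed at the 3′ end. In KO, 91.1% and 88.1% of its reads began at hairpin position 56, and in WT, 85.1% and 94.5%. Position 56 is base 16 of the annotated mature strand, and none of the 3640 reads had 16 or more bases inside that strand. The most common 3′ end, position 79, took 28.1% and 33.0% of the reads in KO and 23.4% and 8.18% in WT. Position 84 took 5.16% and 5.15% in KO and 4.86% and 33.2% in WT. WT replicate 2 thus shared the 5′ end of the other libraries and had other 3′ ends. It is the library with the high ribosomal RNA share, whose part in that shift was not tested.

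The same hairpin held the letters TGATGA at positions 47 and 73 and CTGA at 4 places, the last at position 112. Small nucleolar RNAs of the C/D class carry such letters as their C and D boxes. Of 1005 mouse hairpins in the RefSeq table, 2 (0.199%) held TGATGA followed by CTGA with at least 40 bases between, on the hairpin's strand or the other one. The mmu-mir-3535 hairpin is itself among these, so the count is no test of what it is. That match describes the letters alone, and whether the hairpin belongs to a small nucleolar RNA was not tested. The gene table lists Snora34 and Scarna3a over 2 other hairpins named above, while no small RNA other than the microRNA is listed over mmu-mir-3535.

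Few reads lay on a mature strand by position. How the 5′ ends were trimmed was not stated in the sources used here, so all start positions are those of the deposited sequences, and bases removed before deposit would shift them. A read counted as mature-like when at least 16 of its bases lay inside a RefSeq mature strand of its name. Of the 4228 reads that could be placed in the hairpin of their name, 4009 had fewer than 16 bases inside a mature strand, among them all reads of mmu-mir-3535 and 243 of 268 reads of mmu-mir-10b. Reads that began exactly at the first base of a mature strand were 26 in all, from 9 names. Per library these were 3 and 16 reads in KO, or 0.348% (95% Wilson interval 0.118 to 1.02) and 0.660% (0.407 to 1.07), and 5 and 2 reads in WT, or 1.19% (0.510 to 2.76) and 0.383% (0.105 to 1.39). The difference of -0.283 percentage points gave p = 0.667 (exact two-sided permutation test), and all intervals overlapped. It was 0.121 without WT replicate 1, -0.686 without WT replicate 2, -0.127 without KO replicate 1 and -0.439 without KO replicate 2.

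The seed bases were held by 168 of the placed reads, from 29 names. They made up 3.13% (2.16 to 4.52) and 3.26% (2.62 to 4.04) of placed reads in KO, and 6.90% (4.85 to 9.74) and 6.32% (4.54 to 8.75) in WT. Both KO libraries lay below both WT libraries, and their intervals did not overlap with those of WT, though 2 libraries against 2 cannot give a permutation p below 0.333. Without mmu-mir-3535 and mmu-mir-10b, which held 0 and 13 of these reads, the shares were 42.9% (31.4 to 55.1) and 45.5% (37.9 to 53.3) in KO and 54.2% (40.3 to 67.4) and 58.5% (45.1 to 70.7) in WT, with overlapping intervals. Mature starts were also rare over all annotations, including none. Reads were counted that began with the first 18 bases of any of 1660 distinct RefSeq mature starts. They numbered 5 and 16 in KO and 6 and 3 in WT. Of these, 2 and 0 in KO and 1 and 1 in WT were not under a microRNA name.

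Most placed reads, as deposited, instead began at base 16 of a mature strand, 15 bases after its start. Bases were counted in the mature strand with which the read shared most bases. That position was singled out after the values were seen, and whether removal of 5′ bases before deposit plays a part in it was not tested. It held 3571 of the 4228 placed reads, which is 84.5%, and 43 distinct sequences of 13 names. In KO it took 85.8% (83.4 to 88.0) and 85.1% (83.6 to 86.4) of placed reads, and in WT 75.7% (71.4 to 79.6) and 86.4% (83.2 to 89.1). WT replicate 1 was lower than the other 3 libraries. The positions next to it, bases 15 and 17, held 115 and 208 reads.

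Reads at base 16 were not confined to mmu-mir-3535 and mmu-mir-10b. These names contributed 3244 and 242 of the reads there, and 11 other names contributed 85. Those 85 reads compare with 24 reads that began at the first base of a mature strand and 24 at the second base in the names other than the leading pair. Of the 85 reads, 14 and 59 were in KO and 5 and 7 in WT, so KO replicate 2 held most of them. In WT, starts 2 bases before a mature strand had 7 and 10 reads, so base 16 did not lead there. No other start position was reached by as many names: 13 names had a read at base 16, against 9 names each at the first and second base. Without the leading pair, base 16 took 22.2% (13.7 to 33.9) and 37.8% (30.6 to 45.6) of placed reads in KO, and 10.4% (4.53 to 22.2) and 13.2% (6.55 to 24.8) in WT. Most of the KO replicate 2 reads among these were of mmu-mir-30a, which had 2 and 43 reads there in KO and 4 and 0 in WT.

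The reads at base 16 of the smaller names are shown here because different precursors share the position. Those shown had 4 reads each for mmu-mir-1291 and mmu-mir-10a and 1 read each for the other names. Base 16 held 5 of 21 reads of mmu-mir-10a, 2 of 10 of mmu-mir-31 and 1 of 4 of mmu-mir-21a. It held all 12 reads of mmu-mir-1291 and the only read of mmu-mir-223 and of mmu-mir-7a-1. Capitals again mark the bases inside the mature strand, which is given first for each name with its seed in capitals.
mmu-miR-1291, mature: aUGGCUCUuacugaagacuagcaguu
mmu-mir-1291, read: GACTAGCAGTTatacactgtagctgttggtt
mmu-miR-10a-5p, mature: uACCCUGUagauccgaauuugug
mmu-mir-10a, read: AATTTGTGtaaggaattttg
mmu-miR-31-5p, mature: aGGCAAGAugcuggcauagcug
mmu-mir-31, read: ATAGCTGttgaactgagaac
mmu-miR-21a-5p, mature: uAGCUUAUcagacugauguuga
mmu-mir-21a, read: ATGTTGActgttgaatctcatgg
mmu-miR-223-5p, mature: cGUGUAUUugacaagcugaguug
mmu-mir-223, read: CTGAGTTGgacactctgtgtggt
mmu-miR-7a-5p, mature: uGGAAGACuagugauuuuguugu
mmu-mir-7a-1, read: TTTGTTGTttttagataactaaaacgac
Each of these reads leaves out the seed, holds the last bases of the mature strand and continues into the bases that follow it in the hairpin. The mature strand was the 5′ arm for 10 of the 13 names, and for the other 3 RefSeq lists a single mature strand. The lack of 3′ arms is in part set by the method. The 3′ mature strand ends at position 66 of 68 in the mmu-mir-10b hairpin and at 68 of 71 in that of mmu-mir-30a. A read of 20 nt or more from base 16 of those strands could not be placed. Of the 13 names, 5 had 1 read at base 16 over the 4 libraries, so they add to the number of names and little to the reads.

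The mmu-mir-30a reads split by library between both arms. Reads from base 16 of the 5′ arm into the loop were 2 and 43 in KO and 4 and 0 in WT. Reads that began 2 bases before the 3′ mature strand and ended at its last base were 3 and 0 in KO and 7 and 10 in WT. All 10 reads of WT replicate 2 were of the second kind and 43 of 44 reads of KO replicate 2 of the first kind, and KO replicate 1 and WT replicate 1 held both kinds.

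No microRNA name differed between KO and WT by the test. The reads of all 171 annotated names were fitted in 1 model with the quasi-likelihood test of edgeR, and 64 names passed its filter on low counts. Of the 63 microRNA names 5 passed, with 4033 of the 4278 reads, and the other 58 had too few reads to be tested. The test called 0 of the 5 and 0 of all 64 names (0% called) at an adjusted p under 0.05. At an unadjusted p under 0.05 there were 0 microRNA names and 3 of all names, and DESeq2 called 0. Normalised counts below (CPM) are counts scaled to 1000000 annotated reads with TMM factors.

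The name mmu-mir-3535 had 1195 and 3242 CPM in KO and 1803 and 806 CPM in WT. On the log2 scale KO over WT came to 0.77 (SE 0.65, 95% interval -0.78 to 2.31, edgeR adjusted p = 0.934). Without KO replicate 2 that value was -0.20, without WT replicate 1 it was 1.48 and without WT replicate 2 it was 0.32. The groups overlapped, since WT replicate 1 lay between the KO libraries. For mmu-mir-10b the values were 37.0 and 200 CPM in KO and 113 and 191 CPM in WT, with a log2 fold change of -0.37 (SE 0.94, 95% interval -2.60 to 1.85, edgeR adjusted p = 0.953). Without KO replicate 2 it was -2.08, and it was above 0 without KO replicate 1 (0.12) or without WT replicate 2 (0.08).

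The other 3 tested names had wider intervals. For mmu-mir-1843b the values were 3.08 and 30.4 CPM in KO and 15.5 and 8.51 CPM in WT, with a log2 fold change of 0.57 (SE 1.3, edgeR adjusted p = 0.953). For mmu-mir-148a, 7.71 and 21.3 CPM in KO and 25.8 and 4.25 CPM in WT gave 0.17 (SE 1.22, edgeR adjusted p = 0.966). For mmu-mir-30a, 7.71 and 66.8 CPM in KO and 56.7 and 21.3 CPM in WT gave 0.01 (SE 1.13, edgeR adjusted p = 0.997). In none of the 5 names were the KO libraries all above or all below the WT libraries, against 31.2% of all names tested. The median log2 fold change of the 5 was 0.17, beside -0.0047 over all names tested. The 95% intervals of these 3 names reached from -2.72 to 3.66 at their widest, so changes of that size could not be told from no change. Without WT replicate 2 the log2 fold changes were 0.13 for mmu-mir-1843b, -0.80 for mmu-mir-148a and -0.58 for mmu-mir-30a. Without WT replicate 1 they were 0.98, 1.74 and 0.82 in the same order, and without KO replicate 1 they were 1.14, 0.41 and 0.55. Without KO replicate 2, mmu-mir-30a was at -2.30 and the others were not tested.

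Known germ cell microRNAs had almost no reads. The files held no reads under 20 nt, and whether 5′ bases were removed before deposit was not tested. Low counts here and in the lists below therefore do not show that these microRNAs were absent. Of 24 names of germ line and spermatogenic microRNAs, among them mir-34b, mir-34c and the mir-449 family, 3 were detected, with 0 and 0 reads in KO and 5 and 1 in WT. These were mmu-mir-465c-2 with 3 reads and mmu-mir-184 with 2, all in WT replicate 1, and mmu-mir-881 with 1 in WT replicate 2. The reads of mmu-mir-184 and mmu-mir-881 were mature-like, and 0 of the 3 reads of mmu-mir-465c-2 were. The epididymal and epithelial list, the mir-200 family and 2 further names, had 3 of 7 names, with 0 and 5 reads in KO and 0 and 1 in WT. Its leading members were mmu-mir-200b with 3 reads and mmu-mir-200a with 2, all in KO replicate 2. No member of either list had enough reads to be tested. In such bulk libraries fewer cells of a type and less RNA per cell cannot be told apart.

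The let-7 family, regulators of differentiation, had 5 names, with 7 and 7 reads in KO and 3 and 3 in WT. Scaled to depth these were 9.96 and 9.37 RPM in KO and 14.6 and 4.27 RPM in WT, so the groups overlapped. Of these, mmu-let-7f-1 had 5 and 5 reads in KO and 0 and 0 in WT, and mmu-let-7c-2 had 1 and 0 in KO and 1 and 3 in WT. All 10 reads of mmu-let-7f-1 were 29 to 32 nt long and began at base 16 of the 5′ arm. In the list of mir-10 to mir-125 cluster names, 2 of 7 were detected, and these were mmu-mir-10b and mmu-mir-10a. Of both lists only mmu-mir-10b was tested, and it was not called.

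Names tied to iron or to Tet genes had few reads. Of 6 names linked to iron and iron-sulfur metabolism, 2 were detected, mmu-mir-148a and mmu-mir-152, with 5 and 15 reads in KO and 5 and 2 in WT. Scaled to depth these were 7.11 and 20.1 RPM in KO and 24.3 and 2.84 RPM in WT, with WT replicate 1 highest. The 1 read of mmu-mir-152 was not mature-like, while 25 of the 26 reads of mmu-mir-148a were. The tested member, mmu-mir-148a, was not called. The name mir-210, known in human cells to lower the iron-sulfur scaffold protein ISCU, had 0 reads in all 4 libraries. Of 8 names known to target Tet transcripts, 2 were detected, mmu-mir-101a and mmu-mir-101b, with 1 and 2 reads in KO and 1 and 0 in WT. The mir-29 family had 0 reads.

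Markers of other cells were at or near 0. Of 9 blood names, mmu-mir-223 had 1 read, in KO replicate 1 and not mature-like, and mir-451a, the red cell microRNA, had 0. Of 4 muscle names and of 6 names of liver, brain, endocrine and gut tissue 0 were detected. The mir-17 cluster list of 11 names had 1, mmu-mir-93, with 1 read in WT replicate 1.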

How the data were processed

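Each sperm file gave 1 line per distinct sequence of 20 to 45 nt with its whole read count, as deposited by the authors, and an annotation string. The sources used here did not give the annotation tool and its databases, the library kit for sperm or the treatment of molecular identifiers. The submitters' processing notes list Trim Galore 0.4.5, STAR 2.6.1c, RSEM 1.3.1, DESeq2 1.42.1 and the builds mm10 and GRCm38, with no role for any. The labels' only protocol describes blastocysts.

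Reads were summed per first annotation name. KO was compared with WT with edgeR 4.0.16 in R 4.3.3 (glmQLFit, glmQLFTest, filterByExpr by group, TMM factors, genotype only, Benjamini-Hochberg adjustment over all names tested, threshold 0.05). The standard error was the log2 fold change divided by the root of F. The test was checked on counts simulated from these 171 names and library sizes, KO against WT, with 16-fold changes in names of at least 100 reads. At a dispersion of 0.02 it recovered 100% of them and at 0.5 it recovered 62.6%, while the fitted common dispersion was 0.257. It also called 2.43% and 1.57% of the unchanged names. The tested names mmu-mir-30a, mmu-mir-1843b and mmu-mir-148a had fewer than 100 reads, so the check does not cover them. Changes under 16-fold were not simulated. Shares were compared with exact permutation tests over libraries. Reads were placed by exact match to the RefSeq hairpin of their name, and a read that matched at more than 1 place (1 sequence) took the first. Names were matched to genes through symbols and synonyms in a RefSeq table.

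The members and lists were chosen with earlier results of these data known. Named were mmu-mir-3535, mmu-mir-10b, the 12 names with the highest mean share, called names, the 4 smallest p in each direction and 2 members of each list. The lists were germ line, epididymal, let-7, mir-10 to mir-125 clusters, mir-17 clusters, iron, Tet-directed, blood, muscle and other tissue. Alternatives were RLE factors, library totals, DESeq2 1.42.0, other count filters, a replicate block, sorted annotation strings, 20 to 24 nt sequences, library sizes without ribosomal RNA, other shares and detection minimums, and each library left out.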

Additional observations from a re-analysis of the deposited data

Results flagged for a closer look

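Reads whose annotation string began with the bare word miRNA, with no microRNA name, were not among the 63 names and were higher in both KO libraries than in both WT libraries. They numbered 109 and 51 in KO and 6 and 8 in WT, which is 155 and 68.3 reads per 1000000 in KO and 29.1 and 11.4 in WT, with means of 111.7 in KO and 20.3 in WT. The edgeR log2 fold change of this annotation was 2.41 (SE 0.91, unadjusted p = 0.0333, adjusted p = 0.710). These reads came from strings that also named DNA and other RNA, and what they are was not tested. Both results of this section were picked because both KO libraries lay above both WT libraries, so that order is no evidence of a difference. Among all names tested, 13 of 64 (20.3%) had both KO libraries above both WT libraries in CPM.

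Unannotated reads that held the first 17 bases of the leading mmu-mir-3535 sequence numbered 11 and 20 in KO and 3 and 9 in WT. That is 15.6 and 26.8 reads per 1000000 in KO and 14.6 and 12.8 in WT, with means of 21.2 in KO and 13.7 in WT. KO replicate 1 was close to WT replicate 1, and the difference was not tested. Beside the reads with the mmu-mir-3535 name that hold those bases, 720 and 1959 in KO and 313 and 366 in WT, they were few.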

How the results depend on the processing

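No alternative made a microRNA name pass the test. The count of called names was 0 under RLE factors, library totals, DESeq2, the other count filters, sorted strings, 20 to 24 nt sequences, library sizes without ribosomal RNA and each library left out, in which the lone library of a genotype is assumed to vary like the others. With the replicate number as a block, 0 names were called, with log2 fold changes of 0.71 for mmu-mir-3535 and -0.73 for mmu-mir-10b. Deviations of same-numbered libraries had a weak negative correlation (r = -0.25 over 64 names, which are not replicates). With the numbers crossed, a fit added after seeing the data, 0 names were called. Leaving out 1 library moved mmu-mir-3535 between -0.20 and 1.48 and mmu-mir-10b between -2.08 and 0.12. The sign of mmu-mir-30a flipped in 9 of 14 settings and that of mmu-mir-148a in 4 of 12. The difference in the share of both leading names was 3.33 percentage points with single-name strings and 8.69 with 20 to 24 nt sequences. That in reads at the mature start was -1.74 within 1 base and 0.23 without mmu-mir-3535, and that in 20 to 24 nt reads was -9.65 without mmu-mir-3535. Names in all 4 libraries numbered 4 at 3 reads, 2 at 10 reads and 5.01 at equal depth. Where values moved, the cause was not tested. Low counts kept 58 of 63 names out of the test, and for the other 5 the parts of depth and of spread between libraries were not separated.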
